A study of Mus musculus with 18 samples.

Results

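The levels of 9 genes that mark neurons of the thalamus were followed through the brain of *Fmr1*CRE and wild-type mice. They were *Tcf7l2*, *Lef1*, *Gbx2*, *Lhx9*, *Ntng1*, *Synpo2*, *Rgs16*, *Prkcd* and *Plekhg1*, which are 9 of the 53468 genes in the deposited count table. They were chosen by name and matched to their Ensembl identifiers through GENCODE release M21. The rule is a list of names and sets no threshold on measured values, although the list was drawn up with earlier results of these data known. All 9 passed the filter on low counts.

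Poly(A) RNA was sequenced from forebrain, midbrain and hindbrain dissected at postnatal day 25 from 6 mice of the same litter. The *Fmr1*CRE group held 3 mice that carry, knocked in by CRISPR/Cas9 on a C57BL/6 background, the mouse equivalent of a single-base change in a regulatory element of human *FMR1*. The wild-type group held 3 littermates without it, and neither group was treated. Each mouse gave 1 library per region, 18 in all, with 22455512 to 28061185 counted reads per library. Several independent lines were made, and the labels do not name the line of each mouse. The sources used here do not draw the borders of the 3 dissections.

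The thalamus is the large relay of the diencephalon. It passes sensory and motor signals to the cerebral cortex, and its excitatory relay neurons are set apart from neighbouring cells by a small group of transcription factors and by the receptors, adhesion molecules and signalling proteins that these cells keep into adulthood. In the embryo the diencephalon belongs to the forebrain, but it lies directly in front of the midbrain, so a cut between the regions can leave it on either side. *Tcf7l2* and *Lef1* encode partners of beta-catenin, the messenger of Wnt signalling, and the mature thalamus is known for strong *Tcf7l2* expression. Most of the 9 genes are also used elsewhere. *Tcf7l2* and *Lhx9* are expressed in the roof of the midbrain, *Prkcd* in Purkinje cells of the cerebellum, and *Synpo2* in smooth muscle.

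Levels are given as CPM (read counts scaled to library size) after TMM scaling, and as CPM per kilobase where genes are set against each other. Differences between regions are log2 fold changes from edgeR's quasi-likelihood test over all 18 libraries, averaged over both genotypes (6 mice a region), with Benjamini-Hochberg adjustment over the 20363 genes tested and a threshold of 0.05. In bulk tissue, fewer cells of a type and less RNA per cell cannot be told apart.

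The promoters of all 9 genes were read from RefSeq windows for GRCm38.p6 that run from 250 bases before to 50 bases after the start of transcription. Stretches of 3 of them are shown: *Tcf7l2*, whose level differed most between regions, *Prkcd*, whose differences between regions were among the smallest, and *Synpo2*, which alone held one of the motifs searched. Each is read 5′ to 3′ on the strand of the gene. Capitals mark CG dinucleotides in the first pair and the homeodomain core TAATTA in the last.
Tcf7l2 promoter: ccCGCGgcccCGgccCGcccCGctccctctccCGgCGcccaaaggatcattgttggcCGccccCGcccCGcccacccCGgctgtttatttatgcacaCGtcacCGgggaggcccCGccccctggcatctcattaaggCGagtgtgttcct
Prkcd promoter: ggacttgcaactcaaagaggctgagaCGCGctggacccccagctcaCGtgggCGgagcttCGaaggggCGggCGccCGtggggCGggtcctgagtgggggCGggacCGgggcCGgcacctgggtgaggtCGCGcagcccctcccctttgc
Synpo2 promoter: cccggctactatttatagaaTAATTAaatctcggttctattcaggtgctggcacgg
The stretch of *Tcf7l2* is chr19:55741660-55741809 on the plus strand, that of *Prkcd* chr14:30626209-30626358 on the minus strand and that of *Synpo2* chr3:123236338-123236393 on the minus strand. The *Tcf7l2* and *Prkcd* stretches are the 150 bases just before the start of transcription. They held 15 and 14 CG dinucleotides, and the full windows held 34 and 26. This pair alone does not relate CG content to differences between regions. In the outermost window of each gene the CG count ran from 4 in *Plekhg1* to 34 in *Tcf7l2*, and 7 of the 9 were above 7, the median of all 32851 windows. The others, *Plekhg1* and *Lhx9* (6), have windows inside the gene rather than at its annotated 5′ end. That of *Plekhg1* is chr10:3872417-3872716, in a gene that starts at 3740364. That of *Lhx9* is chr1:138842395-138842694, in a minus-strand gene whose 5′ end is at 138848577. The window of *Ntng1* also lies inside its gene but held 28. It is chr3:110143423-110143722, in a minus-strand gene whose 5′ end is at 110144011. The TCF/LEF motif was searched on both strands as CTTTGAA, found in 5.14% of all windows, and as CTTTGAT, found in 3.73%. Neither was in any of the 14 windows of the 9 genes. TAATTA, which reads the same on both strands, was in 5.29% of all windows and in 1 of those 14. A match is a description of the letters only.

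The dissections were also set against marker lists, which were chosen with earlier results of these data known. Summed levels of 6 striatal genes were 456 to 1309 CPM in forebrain and 97.8 to 361 in midbrain, and those of 9 genes of the midbrain proper were 78.1 to 160 CPM in midbrain and 3.63 to 22.1 in forebrain. The midbrain libraries were not free of neighbours. They held 582 to 1109 CPM of 6 cortical genes against 943 to 1252 in forebrain and 137 to 221 in hindbrain, and 235 to 712 CPM of 6 cerebellar genes against 26.2 to 47.4 in forebrain. The part of these neighbours in the results below was not tested.

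The thalamic genes were found on both sides of the cut, and those that differed were higher in midbrain. Against forebrain, 3 of the 9 genes were higher in midbrain (*Tcf7l2*, *Lhx9* and *Ntng1*) and 0 were lower. Of all 20363 genes 19.3% passed in either direction and 9.96% were higher in midbrain. That is 2028 higher and 1911 lower, which became 2926 and 1391 when libraries were scaled by total counts alone. The median log2 fold change of the 9 was 0.41, against -0.02 over all genes tested. Both regions stood above hindbrain in the same 6 genes, *Tcf7l2*, *Lef1*, *Lhx9*, *Ntng1*, *Synpo2* and *Rgs16*. From forebrain to hindbrain 51.7% of all genes passed, 26.4% of them all being higher in forebrain, and from midbrain to hindbrain 49.1% passed, with 25.1% higher in midbrain. From forebrain to hindbrain the 5383 higher and 5147 lower genes became 4349 and 6819 with total counts alone. Medians of the 9 were 1.21 and 1.62, against -0.01 and -0.03 over all genes. *Gbx2*, *Prkcd* and *Plekhg1* passed in none of the 3 comparisons.

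**Figure D1:**
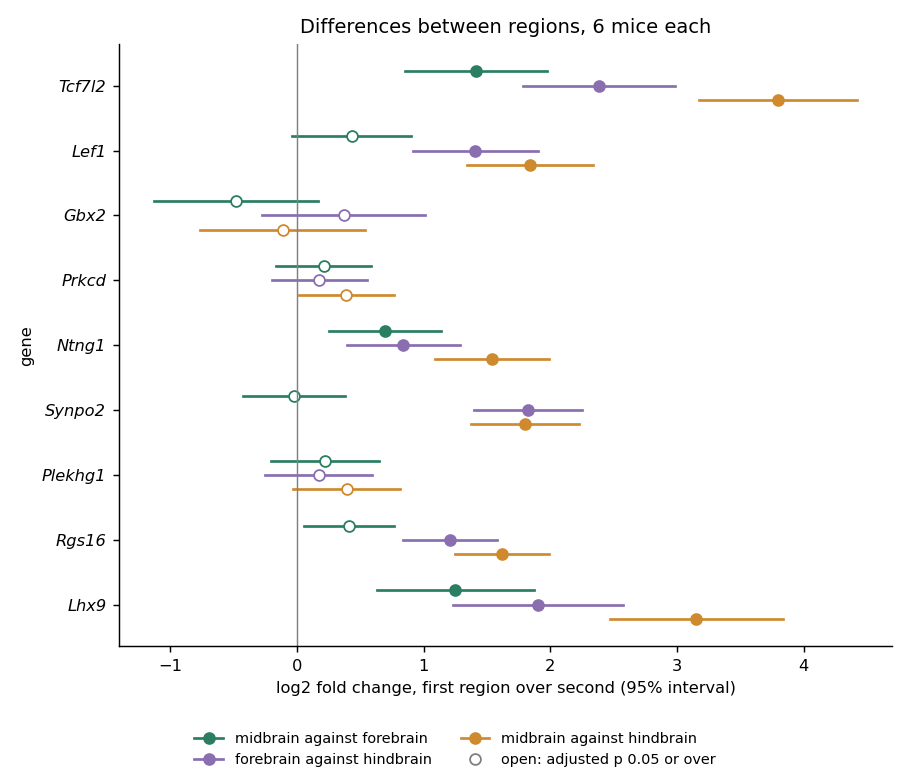
Log2 fold change of each thalamic gene between regions (horizontal axis, points with 95% intervals, 6 mice a region); filled points passed an adjusted p of 0.05 in edgeR's quasi-likelihood test. *Tcf7l2* lies farthest to the right, at 1.41 for midbrain against forebrain and 3.80 for midbrain against hindbrain, and *Synpo2* sits at -0.03 between midbrain and forebrain.

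*Tcf7l2* (ENSMUSG00000024985, chr19:55741820-55933654), the high-mobility-group transcription factor that carries Wnt signals to DNA, showed the widest range. Its lowest, median and highest levels were 10.4, 23.3 and 38.0 CPM in forebrain, 46.8, 61.5 and 89.4 in midbrain, and 3.67, 4.12 and 7.43 in hindbrain. The 3 regions did not overlap: the lowest midbrain library was above the highest forebrain library, and the lowest forebrain library above every hindbrain library. Midbrain exceeded forebrain by 1.41 (SE 0.26, adjusted p = 0.0014 by edgeR), which is 2.66-fold. With the number in the titles taken as the mouse, the midbrain library was higher in 6 of 6, by 0.59 to 2.21 on the log2 scale (two-sided exact sign-flip p = 0.03125, unadjusted, the smallest that 6 mice can give). On average 68.7% ± 8.59 (SD, n = 6) of the *Tcf7l2* summed over the regions of a mouse was in midbrain and 25.9% ± 9.57 in forebrain. A list of 5 genes of differentiating oligodendrocytes summed to 182 to 268 CPM in forebrain, 235 to 328 in midbrain and 226 to 324 in hindbrain. Of these 5 genes 1 was higher and 0 lower in midbrain than in forebrain. The part of these cells in the level of *Tcf7l2* was not tested.

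*Lhx9* (ENSMUSG00000019230, chr1:138825186-138848577) encodes a LIM-homeodomain factor of the developing thalamus that is also made in the pretectum and tectum. Its lowest, median and highest levels were 1.81, 6.33 and 9.35 CPM in forebrain, 12.2, 13.1 and 15.9 in midbrain, and 1.07, 1.42 and 2.45 in hindbrain. No forebrain library reached the lowest midbrain library, while the lowest forebrain library lay inside the range of hindbrain. Midbrain exceeded forebrain by 1.25 (SE 0.29, adjusted p = 0.0071 by edgeR), or 2.38-fold. The midbrain libraries were close together, with a log2 SD of 0.16, whereas forebrain had a log2 SD of 0.86. Without both mice numbered 3 the difference was 1.15 with an adjusted p of 0.0834. In wild type only and in *Fmr1*CRE only it was 1.34 and 1.16, with adjusted p of 0.0563 and 0.0993 by edgeR. *Tcf7l2* and *Lhx9* were thus 2 of 9 genes higher in every midbrain than in every forebrain library, as were 5.35% of all genes.

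*Ntng1* (ENSMUSG00000059857, chr3:109780040-110144011) encodes netrin-G1, a membrane-anchored adhesion molecule on thalamocortical axons. Its lowest, median and highest levels were 16.2, 33.4 and 50.7 CPM in forebrain, 40.3, 58.6 and 69.0 in midbrain, and 16.4, 18.6 and 22.7 in hindbrain. Forebrain and midbrain overlapped, although the midbrain library was the higher in 6 of 6 mice. The difference of 0.70 (SE 0.21, adjusted p = 0.0275 by edgeR), or 1.62-fold, did not pass in 4 of the 6 fits that left out a mouse. Without wild-type mouse 1, 2 or 3 or *Fmr1*CRE mouse 1 it was 0.65, 0.71, 0.73 and 0.61 with adjusted p of 0.124, 0.0863, 0.0549 and 0.134. It passed without *Fmr1*CRE mouse 2 or 3, at 0.63 and 0.91 with adjusted p of 0.0114 and 0.0072.

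**Figure D2:**
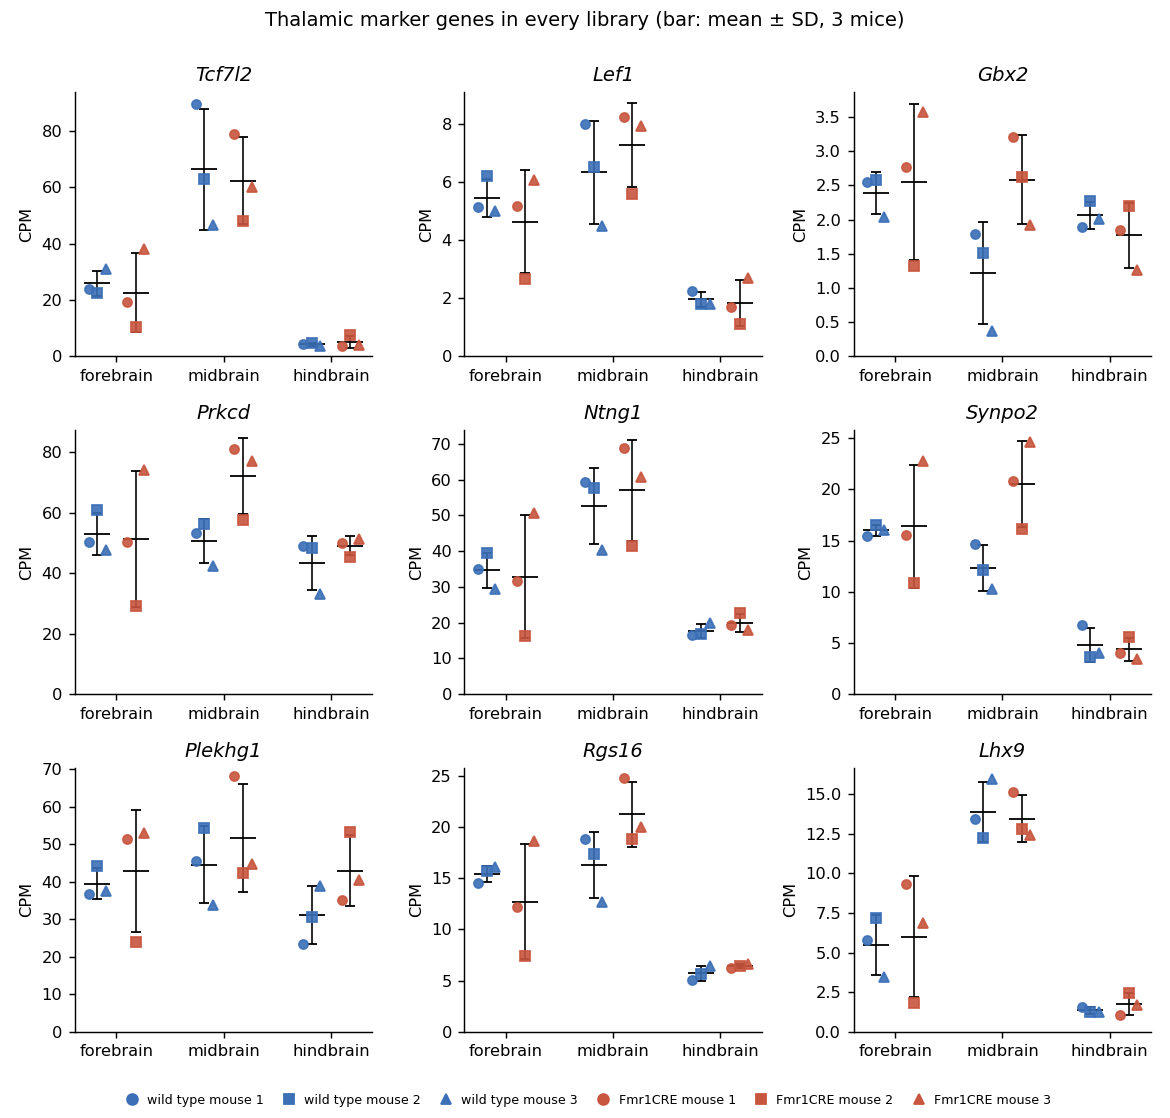
Level of each thalamic gene in every library (CPM, vertical axis from 0) by region, with wild type in blue and *Fmr1*CRE in red, a symbol for each mouse number and bars for the mean ± SD of 3 mice. *Tcf7l2* stands at 46.8 to 89.4 CPM in midbrain against 10.4 to 38.0 in forebrain, and the square of *Fmr1*CRE mouse 2 is the lowest forebrain point in all 9 panels.

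*Lef1* (ENSMUSG00000027985, chr3:131110471-131224356), the relative of *Tcf7l2* in the same Wnt pathway, was present at lower levels. Its lowest, median and highest levels were 2.67, 5.16 and 6.21 CPM in forebrain, 4.48, 7.23 and 8.26 in midbrain, and 1.12, 1.82 and 2.69 in hindbrain. Midbrain and forebrain overlapped, and their difference of 0.43 (95% interval -0.04 to 0.90) had an adjusted p of 0.195 in edgeR. Midbrain exceeded hindbrain by 1.84 and forebrain exceeded it by 1.41, both past the threshold and both in 6 of 6 mice. An antisense gene, *Gm43352*, shares 1208 exon bases with *Lef1* and had 0 to 23 counts per library against 31 to 203 for *Lef1*. Whether counting used the strand is not given in the sources used here.

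*Rgs16* (ENSMUSG00000026475, chr1:153740349-153745468), which speeds the shut-off of G proteins and marks relay neurons, ran at a lowest, median and highest of 7.37, 15.1 and 18.6 CPM in forebrain, 12.7, 18.8 and 24.8 in midbrain, and 5.04, 6.35 and 6.65 in hindbrain. Every forebrain and midbrain library was above every hindbrain library. Between midbrain and forebrain the difference was 0.41 (95% interval 0.05 to 0.77, adjusted p = 0.102 by edgeR). It passed the threshold without *Fmr1*CRE mouse 3, at 0.62 with an adjusted p of 0.0144.

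*Synpo2* (ENSMUSG00000050315, chr3:123076519-123236149) encodes an actin-binding protein. Its medians in forebrain and midbrain were close. The lowest, median and highest levels were 10.8, 15.8 and 22.7 CPM in forebrain, 10.2, 15.4 and 24.6 in midbrain, and 3.45, 4.02 and 6.71 in hindbrain. The difference between midbrain and forebrain was -0.03 (95% interval -0.43 to 0.38), and 3 of 6 mice had the higher library in midbrain. Forebrain exceeded hindbrain by 1.82 and midbrain exceeded it by 1.80, with no overlap in either case. The shares per mouse were 43.8% ± 7.50 in forebrain and 43.5% ± 7.28 in midbrain (SD, n = 6). Smooth muscle, another source of *Synpo2*, was covered by 5 marker genes. Their summed level was 9.82 to 19.0 CPM in forebrain, 10.3 to 16.5 in midbrain and 9.38 to 14.6 in hindbrain. Of the 5, 0 passed between midbrain and forebrain. Against hindbrain, 1 was higher and 0 lower in forebrain, and 0 were higher and 1 lower in midbrain.

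**Figure D3:**
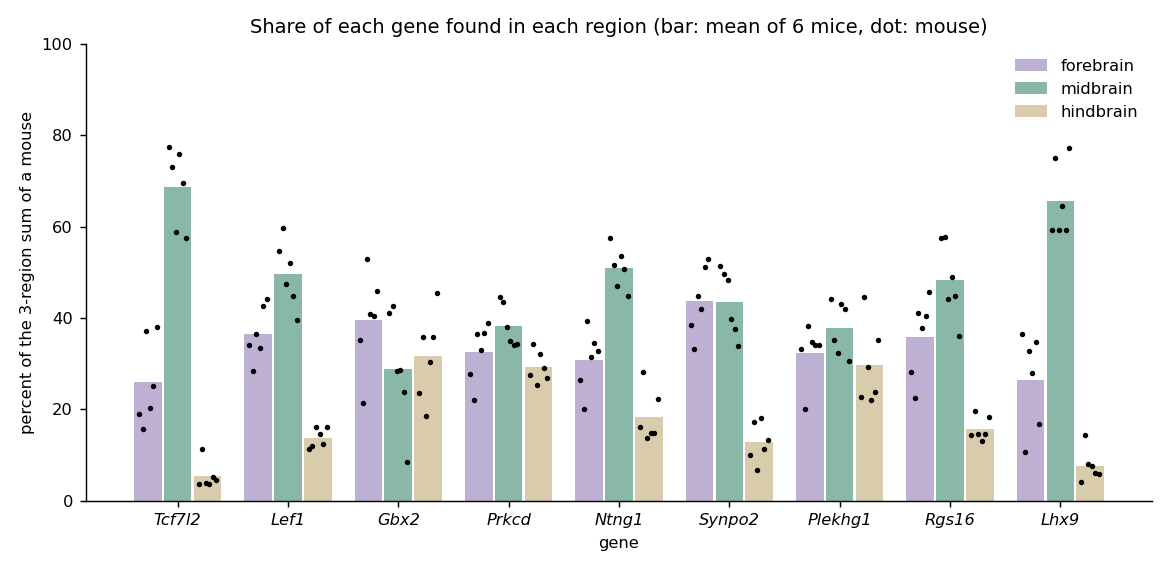
Share of each thalamic gene found in each region (percent of the TMM-scaled CPM summed over the 3 regions of a mouse); bars are means of 6 mice and dots are mice. *Tcf7l2* and *Lhx9* have their largest share in midbrain, at 68.7% and 65.7%, while *Synpo2* is split between forebrain and midbrain at 43.8% and 43.5%.

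For the remaining 3 genes no difference between regions passed. *Prkcd* (ENSMUSG00000021948, chr14:30595354-30626210), the delta form of protein kinase C, was found at 29.3, 50.4 and 74.1 CPM (lowest, median and highest) in forebrain, 42.3, 57.0 and 81.2 in midbrain, and 33.0, 48.6 and 51.5 in hindbrain. All 3 regions overlapped. Midbrain exceeded hindbrain by 0.39 with an adjusted p of 0.0808, which became 0.0385 with the mouse as a block in edgeR. *Plekhg1* (ENSMUSG00000040624, chr10:3740364-3967303) was at 24.0, 40.9 and 53.0 CPM in forebrain, 33.8, 45.1 and 68.2 in midbrain, and 23.5, 37.0 and 53.4 in hindbrain. Its midbrain against hindbrain difference of 0.39 had an adjusted p of 0.116. It passed without wild-type mouse 3 or *Fmr1*CRE mouse 2, at 0.58 and 0.56 with adjusted p of 0.0473 and 0.0145.

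*Gbx2* (ENSMUSG00000034486, chr1:89927956-89931179), a homeodomain factor required for thalamic development, was near the floor of the table at 11 to 84 counts per library. Its lowest, median and highest levels were 1.32, 2.57 and 3.58 CPM in forebrain, 0.377, 1.86 and 3.22 in midbrain, and 1.26, 1.95 and 2.28 in hindbrain. Midbrain against forebrain was -0.48 (95% interval -1.13 to 0.17, adjusted p = 0.298 by edgeR). The gene is uncertain here. An antisense gene, *D130058E05Rik*, shares 946 exon bases with it and had 10 to 67 counts in these libraries.

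Per kilobase of transcript, *Prkcd* was the most abundant of the 9 in every region, with mean levels of 26.8, 31.5 and 23.7 CPM per kb in forebrain, midbrain and hindbrain. In midbrain it was followed by *Tcf7l2* at 25.1, *Ntng1* at 17.6, *Plekhg1* at 8.71, *Rgs16* at 7.94, *Lhx9* at 4.12, *Synpo2* at 3.89, *Lef1* at 2.60 and *Gbx2* at 1.27 CPM per kb. In that order the ranges over 6 mice separated at only 2 steps, between *Ntng1* and *Plekhg1* and between *Rgs16* and *Lhx9*. *Tcf7l2* moved from place 2 in midbrain to place 3 in forebrain, at 9.46 CPM per kb, and place 5 in hindbrain, at 1.81. *Lhx9* moved from place 6 to place 9 between midbrain and hindbrain, where it was at 0.467 CPM per kb.

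In forebrain and midbrain, though not in hindbrain, 1 library was the lowest for most of the genes. In forebrain, *Fmr1*CRE mouse 2 had the lowest level of all 9 genes, at 26.4% to 67.6% of the median of the other 5 libraries, whereas that library was the lowest of its region for 15.9% of all genes tested. *Fmr1*CRE mouse 3 had the highest forebrain level in 7 of the 9, and was highest for 18.9% of all genes. In midbrain, wild-type mouse 3 was lowest in 8 of the 9, at 19.6% to 74.4% of the median of the others, and was lowest for 20.1% of all genes. The exception was *Lhx9*, of which the same library held the most, 15.9 CPM. *Fmr1*CRE mouse 1 was highest in midbrain in 6 of the 9, and for 17.5% of all genes. In hindbrain no library was lowest in more than 3 of the 9 or highest in more than 4. The libraries with these counts were wild-type mouse 1, lowest for 16.1% of all genes, and *Fmr1*CRE mouse 2, highest for 20.2%. The 9 genes share libraries and are not independent of each other.

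**Figure D4:**
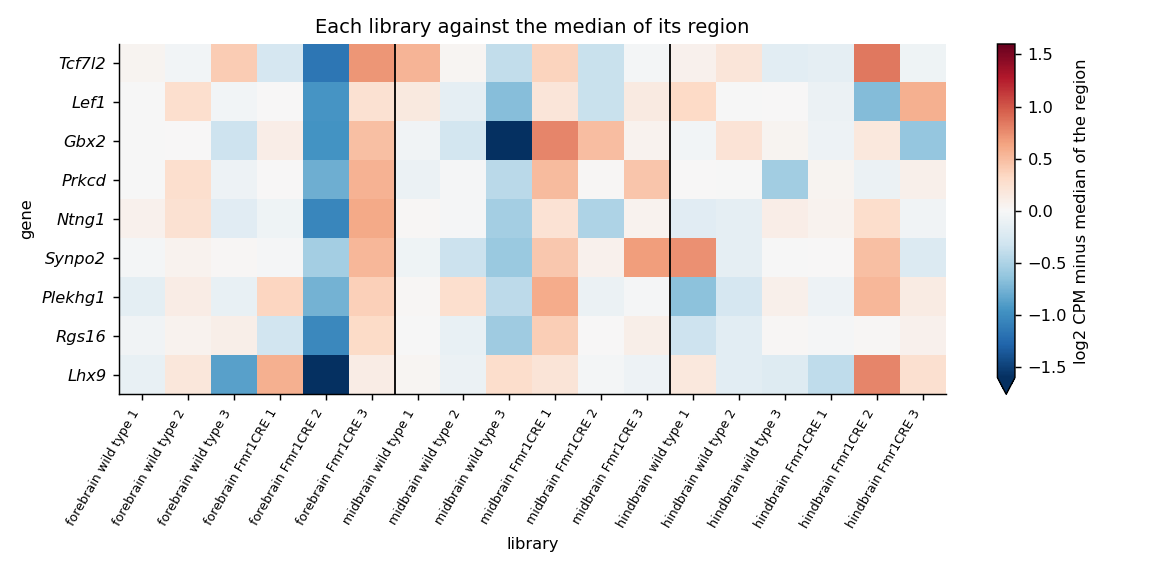
Log2 CPM of each thalamic gene in each library minus the median of its region (colour scale, blue below and red above; values under -1.6 are drawn at the end of the scale). The column of *Fmr1*CRE mouse 2 in forebrain is blue in all 9 rows, and that of wild-type mouse 3 in midbrain is blue in 8 of 9.

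The same spread is seen in the summed level of the 9 genes, which ran from 104 to 274 CPM in forebrain (2.64-fold), 207 to 369 in midbrain (1.79-fold) and 111 to 147 in hindbrain (1.33-fold). The lowest forebrain sum was therefore below the lowest hindbrain sum. In these sums *Prkcd*, which did not pass between regions, made up 29.3 of 104 CPM and 48.9 of 111 CPM. The sum of 15 further genes used in the thalamus was also lowest of the forebrain in *Fmr1*CRE mouse 2, at 751 CPM against 869 to 1123. In midbrain that sum was 1240 CPM in wild-type mouse 3, inside the range of 1224 to 1332. The SD of log2 CPM was above the median of all genes for all 9 in forebrain, for 8 in midbrain and for 6 in hindbrain. Markers of other territories moved in the same libraries. The forebrain library of *Fmr1*CRE mouse 2 had the highest striatal sum, 1309 CPM against 456 to 1018 in the others, the lowest sum of choroid plexus genes, 363 CPM against 630 to 865, and the second lowest hypothalamic sum, 13.9 CPM, after 5.72 in *Fmr1*CRE mouse 1. The midbrain library of wild-type mouse 3 had the highest cerebellar sum, 712 CPM against 235 to 628, and the lowest hypothalamic sum, 5.51 CPM against 6.97 to 122. The part of the dissection in these differences was not tested. Without the forebrain library of *Fmr1*CRE mouse 2, a choice made after the values were seen, *Tcf7l2*, *Lhx9* and *Ntng1* remained higher in midbrain than in forebrain, at 1.24, 1.04 and 0.54 with adjusted p of 0.0023, 0.0036 and 0.0359, and the other 6 genes did not pass.

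**Figure D5:**
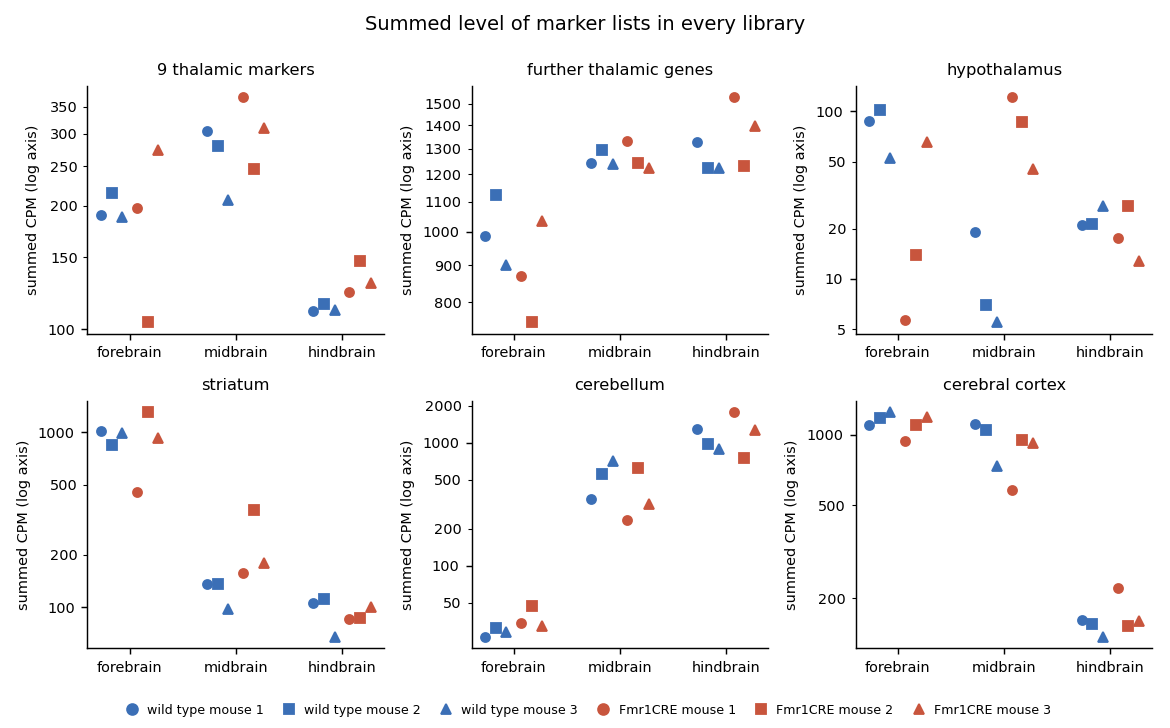
Summed CPM (log axis) of the 9 thalamic genes and of 5 marker lists in every library, by region, with wild type in blue and *Fmr1*CRE in red and a symbol for each mouse number. The sum of the 9 genes runs from 104 to 274 CPM in forebrain and 207 to 369 in midbrain, and the *Fmr1*CRE midbrain libraries lie above the wild-type ones in the hypothalamic panel, at 45.1 to 122 against 5.51 to 19.0.

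Likeness between the genes was described by the Pearson correlation, over the 18 libraries, of a gene's log2 CPM with the mean scaled profile of the others. It was 0.956 for *Rgs16*, 0.944 for *Ntng1*, 0.884 for *Tcf7l2*, 0.879 for *Lef1*, 0.859 for *Lhx9*, 0.850 for *Synpo2*, 0.724 for *Prkcd*, 0.659 for *Plekhg1* and 0.234 for *Gbx2*. The points share the difference between regions and come in sets of 3 from the same mouse. Outside the 9, the genes most like their mean profile were *Nell1* (r = 0.949), *Fam19a4* (0.924), *Slitrk6* (0.916), *Ywhab* (0.914), *Tubb5* (0.910), *Kdm1a* (0.907), *Caly* (0.905), *Tnnt1* (0.904), *Pcdha3* (0.903) and *Rasd1* (0.903). Of these, *Slitrk6*, a neuronal transmembrane protein, and *Tnnt1*, a slow troponin subunit, were also on the list of further thalamic genes. *Tnnt1* was at 2.80 to 11.1 CPM in forebrain, 5.07 to 12.5 in midbrain and 0.693 to 1.63 in hindbrain, so that the first pair of regions overlapped and hindbrain stood below both.

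The 15 further genes used in the thalamus gave a mixed pattern. Between midbrain and forebrain 4 were higher in midbrain and 1 lower, with a median log2 fold change of 0.11. The 4 were *Calb2*, the calcium-binding protein calretinin, at 1.34, the zinc-finger factor *Zic1* at 1.08, the phospholipase *Plcb4* at 0.89 and *Slc17a6*, the vesicular glutamate transporter of subcortical neurons. None of the 4 was low in hindbrain. *Zic1* had medians of 224 CPM in hindbrain, 112 in midbrain and 53.7 in forebrain, and *Slc17a6* of 147, 164 and 73.7 CPM. Against hindbrain, forebrain was higher in 6 and lower in 6 of the 15, and midbrain higher in 7 and lower in 3. The habenula, which adjoins the thalamus, gave 2 genes higher and 1 lower in midbrain than in forebrain, of 7. *Gpr151*, an orphan receptor of habenular neurons, was lower in midbrain than in forebrain by -1.49 (adjusted p = 0.0131), with medians of 0.712 and 2.28 CPM, whereas *Pou4f1*, a POU-domain factor that the red nucleus and tectum also express, was higher by 1.91 (adjusted p = 0.0116). *Chrna3*, a nicotinic acetylcholine receptor subunit, was higher by 1.02 (adjusted p = 0.0061). Of 7 hypothalamic genes, *Oxt* and *Avp*, which encode oxytocin and vasopressin, were lower in midbrain by -2.82 and -2.06, and 0 were higher.

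Around *Tcf7l2* and *Lef1*, 22 further genes of the Wnt and beta-catenin pathway were examined. Between midbrain and forebrain 4 were higher and 2 lower, with a median of 0.01. *Sp5*, a transcription factor induced by Wnt, was higher by 1.57 (adjusted p = 4.84e-04), although at medians of 0.366 and 1.22 CPM it was among the scarcer genes. *Nkd2*, which restrains Wnt signalling, was higher by 0.95 (adjusted p = 0.0015). *Tcf7*, the third member of the TCF/LEF family named here, was lower by -0.71 (adjusted p = 0.0017), opposite in direction to *Tcf7l2*, at 3.08 to 4.07 CPM in forebrain and 1.71 to 2.46 in midbrain without overlap. *Apc*, a scaffold of the complex that destroys beta-catenin, was lower by -0.99 (adjusted p = 3.79e-04). Against hindbrain, 13 of the 22 were higher in forebrain and 2 lower, and 14 were higher in midbrain and 1 lower, with medians of 0.58 and 0.51. In 7 genes of the brain endothelium, where *Lef1* also acts, 0 were higher and 2 lower in midbrain than in forebrain. Of these 7, 4 were higher and 0 lower in forebrain than in hindbrain, with a median of 0.46. From midbrain to hindbrain 1 was higher and 1 lower in midbrain. The part of endothelium in the level of *Lef1* was not tested.

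The study compared genotypes within each region, and here the libraries of 3 mice were set against those of 3. *Fmr1*, the gene next to the edited element, differed by -0.00, 0.01 and 0.15 in forebrain, midbrain and hindbrain, with adjusted p of 0.996, 0.995 and 0.907 (edgeR). None of the 9 thalamic genes passed in any region. Of all genes 0% of 18467 passed in forebrain, 0.00543% of 18400 in midbrain and 0% of 19112 in hindbrain. At an unadjusted p under 0.05 edgeR gave 0, 2 and 0 of the 9 in the same order. Over all genes it gave 1002 of 18467, 1135 of 18400 and 981 of 19112 at that threshold. DESeq2 gave 0, 3 and 1 of the 9 at an unadjusted p under 0.05, and called 0 of the 9 after adjustment. Over all genes DESeq2 called 31, 62 and 59. The widest 95% interval of the forebrain comparison was that of *Lhx9*, -1.09 to 1.44, and the narrowest that of *Synpo2*, -0.49 to 0.62.

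In midbrain, 4 of the 9 genes were higher in every *Fmr1*CRE than in every wild-type library, as were 6.41% of all genes. *Synpo2* was at 20.8, 16.2 and 24.6 CPM in *Fmr1*CRE mice 1 to 3 and at 14.7, 12.1 and 10.2 in wild-type mice 1 to 3, a difference of 0.74 (SE 0.19, adjusted p = 0.751 by edgeR). *Prkcd* was at 81.2, 57.7 and 77.3 CPM against 53.2, 56.3 and 42.3, a difference of 0.51 (SE 0.16, adjusted p = 0.770 by edgeR). The *Fmr1*CRE libraries were the higher in both, though for *Prkcd* the nearest values were 57.7 and 56.3. *Rgs16* was at 24.8, 18.8 and 20.1 CPM against 18.8, 17.4 and 12.7, where the nearest values were 18.84 and 18.82. *Gbx2* was at 3.22, 2.62 and 1.93 CPM against 1.79, 1.51 and 0.377. Their differences of 0.39 and 1.11 had adjusted p of 0.807 and 0.809 by edgeR. For each of the 4 the two-sided exact permutation p was 0.1, the smallest that 3 against 3 allows.

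Without wild-type mouse 3, whose midbrain library was low in 8 of the 9 genes, these 4 differences were 0.62, 0.40, 0.24 and 0.66, for *Rgs16* and *Gbx2* over 1.5 times smaller. The same midbrain libraries differed in other territories. The summed level of 7 hypothalamic genes was 122, 85.9 and 45.1 CPM in the *Fmr1*CRE mice and 19.0, 6.97 and 5.51 in the wild-type mice, with 0 of the 7 past the threshold. That of 6 striatal genes was 156.8, 360.9 and 178.4 CPM against 135.5, 136.4 and 97.8, with 0 of the 6 past it. In forebrain the hypothalamic sums leaned the other way and overlapped, at 5.72, 13.9 and 66.1 CPM in *Fmr1*CRE against 87.8, 101.9 and 52.9. The part of these territories in the thalamic genes was not tested. *Tcf7l2* and *Lhx9*, the genes with the largest share in midbrain, overlapped between genotypes there, with differences of -0.08 and -0.05.

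The difference between genotypes was also compared across regions in 1 edgeR fit of all 18 libraries, in which libraries of the same mouse are not linked. Of the 9 genes 0 passed, with adjusted p of 0.674 to 0.947, and 0% of all 20363 genes passed. At an unadjusted p under 0.05 it was 0 of the 9 by either edgeR or DESeq2, and 1535 of all 20363 genes by edgeR. In hindbrain the largest difference between genotypes was that of *Plekhg1*, at 43.0 ± 9.42 CPM in *Fmr1*CRE and 31.0 ± 7.73 in wild type (SD, n = 3), or 0.46 with an adjusted p of 0.875 by edgeR.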

How the data were processed

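Poly(A) RNA from forebrain, midbrain and hindbrain of 6 mice was sequenced as single-end reads. The authors ran bcbio_nextgen with salmon and imported the estimates for DESeq2, and the submitters' processing notes name Salmon 0.14.0, DESeq2 1.30.1 and mm10. The deposited gene table holds raw counts for 53468 genes in 18 libraries, of which 53363 have a symbol in GENCODE M21. The authors also deposited 18 files of expected counts per transcript, which were used here only pooled, for effective transcript lengths, because their names and the samples they are filed under differ. A variance-stabilised table was not used. The strand setting and the libraries in each of the sequencing pools are not given in the sources used here.

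Counts were scaled by TMM and filtered with filterByExpr in edgeR 4.0.16 (R 4.3.3). Regions were compared by the quasi-likelihood test over all 18 libraries in 6 groups of region and genotype, and genotypes within the 6 libraries of a region. P-values were adjusted over all genes by the Benjamini-Hochberg method at 0.05, and log2 levels used a prior count of 0.5. The number in each title recurs in the 3 regions and was taken as the mouse, which the labels do not state. The within-mouse counts, sign-flip tests and shares rest on this, and regions were also compared with the mouse as a replicate block. Deviations of libraries of the same mouse correlated at -0.14 to 0.17 over 18 pairs. Exact sign-flip tests over 6 mice and exact permutation tests of 3 against 3, both two-sided, are unadjusted. The scripts were tested on simulated data.

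Total counts were 22455512 to 28061185 per library. At this depth the scarcest of the genes, *Gbx2*, had 11 to 84 counts. Alternatives were DESeq2 1.42.0, its size factors, total counts alone, other filters, each genotype alone, and mice or libraries left out. Leaving out the forebrain library of *Fmr1*CRE mouse 2 was chosen after seeing the data. The genes and marker lists were chosen with earlier results of these data known. Genes outside the 9 are named where they are on a marker list, or are among the 10 most like the mean profile of the 9.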

Additional observations from a re-analysis of the deposited data

Results flagged for a closer look

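Among 27 sets of 6 libraries (9 genes in 3 regions), 5 had a library set apart from the others by Dixon's test. The nominal rate of that test is about 1 in 20 sets of independent, normally distributed values. The 9 genes share libraries and the share over all genes is not given, so the 5 cannot be read against that rate. *Tcf7l2* was at 7.43 CPM in the hindbrain of *Fmr1*CRE mouse 2, against 3.67 to 4.72 in the other 5 libraries. *Lef1* was at 2.67 CPM in the forebrain of the same mouse, against 5.01 to 6.21. *Gbx2* was at 0.377 CPM in the midbrain of wild-type mouse 3, against 1.51 to 3.22, and at 1.26 CPM in the hindbrain of *Fmr1*CRE mouse 3, against 1.85 to 2.28. *Prkcd* was at 33.0 CPM in the hindbrain of wild-type mouse 3, against 45.5 to 51.5. The causes were not tested.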

How the results depend on the processing

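With 6 mice a region and 3 a genotype, intervals were wide for genes that varied between mice, such as *Lhx9* in forebrain and *Gbx2* in midbrain. Of 432 values of the 9 genes between regions under the alternatives, 402 kept direction and side of the threshold, 12 reversed, 10 lost and 8 gained a call. Of 378 between genotypes, 343 kept both and 35 reversed, and none of the 9 genes was called. The causes were not tested. Total counts alone moved the median of all genes to -0.15 for forebrain against hindbrain and -0.11 for midbrain against hindbrain.

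With the mouse as a replicate block, midbrain against forebrain was 1.42 for *Tcf7l2*, 1.31 for *Lhx9* and 0.72 for *Ntng1*, and among the 9 genes the block changed only the call of *Prkcd* between midbrain and hindbrain. The labels do not say whether mice of different genotypes that share a number are linked. Their deviations correlated at -0.10 to 0.06. Libraries taken as the same mouse gave only -0.14 to 0.17, so this measure cannot decide it. A replicate block on the shared numbers called 0 of the 9 genes.

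Midbrain against forebrain, 3 of the 9 genes were higher with all mice, 1 in wild type only and 1 in *Fmr1*CRE only, in both cases *Tcf7l2*. Of all genes, 2028 were higher and 1911 lower, against 851 and 939 in wild type only, 805 and 591 in *Fmr1*CRE only, and 1118 to 2216 and 1122 to 1785 leaving out each mouse. In *Fmr1*CRE only, 3307 genes were lower in forebrain than in hindbrain against 5147 with all mice, and midbrain against hindbrain gave 3342 higher and 2648 lower, with 3247 lower in wild type only, against 5114 and 4880.

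Genes called between genotypes, 0 in forebrain, became 31 with DESeq2 and 1 with all 18 libraries in 1 fit. The 1 in midbrain became 62 with DESeq2, 11 with no filter, 0 with at least 10 counts in every library, 3 without both mice numbered 3, 0 with all 18 libraries and 0 to 4 leaving out each mouse. The 0 in hindbrain became 59, 11 with no filter, 1 without both mice numbered 3, 1 with all 18 libraries and 0 to 5. The 0 differing between regions became 52 with DESeq2, 7 with no filter, 131 without both mice numbered 3 and 0 to 4.

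These directions reversed. In *Fmr1*CRE only, *Gbx2* was 0.019 for midbrain against forebrain and 0.54 against hindbrain, *Synpo2* 0.32 for midbrain against forebrain, and *Plekhg1* -0.0051 for forebrain against hindbrain. In wild type only, *Prkcd* was -0.069 for midbrain against forebrain. With total counts alone, *Synpo2* was 0.032 for midbrain against forebrain and *Prkcd* 0.012 between genotypes in forebrain. Without both mice numbered 3, *Synpo2* was 0.12 for midbrain against forebrain, *Prkcd* -0.033 for forebrain against hindbrain and *Gbx2* 0.096 for midbrain against hindbrain. In the same setting the genotype difference was -0.27 for *Gbx2*, -0.22 for *Synpo2*, -0.039 for *Plekhg1* and -0.15 for *Lhx9* in forebrain, -0.052 for *Lef1*, -0.071 for *Ntng1* and 0.14 for *Lhx9* in midbrain, and -0.040 for *Prkcd* in hindbrain. Leaving out each mouse, *Synpo2* ran from -0.11 to 0.058 for midbrain against forebrain and *Gbx2* from -0.33 to 0.11 for midbrain against hindbrain. Genotype differences in forebrain then ran from -0.74 to 0.16 for *Tcf7l2*, -0.42 to 0.073 for *Lef1*, -0.17 to 0.43 for *Gbx2*, -0.36 to 0.26 for *Prkcd*, -0.47 to 0.27 for *Ntng1*, -0.22 to 0.28 for *Synpo2*, -0.035 to 0.44 for *Plekhg1*, -0.60 to 0.018 for *Rgs16* and -0.34 to 0.60 for *Lhx9*. In midbrain they ran from -0.29 to 0.18 for *Tcf7l2*, -0.041 to 0.31 for *Ntng1*, -0.039 to 0.39 for *Plekhg1* and -0.15 to 0.071 for *Lhx9*, and in hindbrain from -0.15 to 0.40 for *Tcf7l2*, -0.49 to 0.16 for *Lef1*, -0.00082 to 0.27 for *Prkcd* and -0.35 to 0.20 for *Synpo2*.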
